A study of Caenorhabditis elegans with 2 samples.

Results

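The introns of protein-coding genes on the 5 autosomes of Caenorhabditis elegans held 5508 of the 30000 regions ranked for binding of the GATA factor ELT-1. Of the 5508, 47 (0.853%) were in the thresholded list of peaks, beside 1.17% of all ranked regions (351 of 30000). Among autosomal ranked regions the share was 1.06% (254 of 24023). A region was taken as intronic by the place of its summit: inside a protein-coding gene, in none of that gene's exons, and more than 1000 bp upstream or 200 bp downstream of every protein-coding transcript start. No signal entered this choice. The regions come from chromatin immunoprecipitation and sequencing (ChIP-seq) of 1 group, L2 larvae of mixed sex of strain OP354, in 2 biological replicates. All animals carry the unc-119(tm4063) III mutation and the insertion wgIs354, which encodes ELT-1 fused to eGFP. The label names the antibody as elt-1 while the description speaks of eGFP, and the strain of the control is not given. There was no untreated, untagged or other-stage group, so every comparison below is between places, between ranks or between the replicates. The signal comes from whole animals, so the cells that gave it are not known, and the tagged protein is a transgene product in 1 strain. Intronic regions of X, 25 of which were thresholded, are not members.

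GATA factors are zinc-finger proteins that bind DNA sites with a GATA core, usually written WGATAR. In the worm, ELT-1 specifies the epidermis in the embryo and stays active in epidermal cells of larvae. Worm introns, mostly those near the start of a gene, can hold enhancers and start sites of shorter transcripts. Here each region has a signal, the enrichment over a control that the authors' region caller gave it, and a rank within its list. The thresholded list holds 351 regions, chosen by the authors with the irreproducible discovery rate, a measure of how well ranks repeat between replicates. These were the first 351 of the pooled list, which the authors made from both replicates.

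The windows of 101 bases centred on the summits show what the intronic peaks were made of, and the first set holds the motif. The motif was searched as AGATAA or AGATAG or TGATAA or TGATAG on both strands, and capitals mark each match. No matches overlap in the windows printed, and a match on the other strand shows as its reverse complement, such as TTATCT. Each window is the plus strand of ce11 (WBcel235), 5′ to 3′, read from the RefSeq assembly. The first set was chosen for strong signal, for repeated sites, or for host genes with more than 1 peak.
spsb-1, first intron, chrII:15213859-15213959: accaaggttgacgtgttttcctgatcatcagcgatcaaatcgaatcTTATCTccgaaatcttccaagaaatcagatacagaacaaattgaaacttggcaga
egl-18, intron 3, chrIV:1915039-1915139: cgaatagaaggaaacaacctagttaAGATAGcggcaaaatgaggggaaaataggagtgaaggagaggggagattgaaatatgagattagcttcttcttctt
nhr-43, intron 2, chrIV:11900518-11900618: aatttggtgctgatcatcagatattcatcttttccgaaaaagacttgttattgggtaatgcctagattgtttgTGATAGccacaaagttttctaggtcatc
elt-1, intron 4, chrIV:9617562-9617662: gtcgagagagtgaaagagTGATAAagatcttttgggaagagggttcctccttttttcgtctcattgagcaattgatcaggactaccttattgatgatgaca
unc-53, first intron, chrII:11076689-11076789: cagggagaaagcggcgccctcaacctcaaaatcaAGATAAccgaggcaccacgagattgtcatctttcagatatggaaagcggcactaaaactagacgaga
R02F2.1, first intron, chrIII:5503078-5503178: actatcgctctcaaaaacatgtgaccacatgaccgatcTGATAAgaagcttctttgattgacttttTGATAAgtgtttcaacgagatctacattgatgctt
mbk-2, intron 2, chrIV:13014127-13014227: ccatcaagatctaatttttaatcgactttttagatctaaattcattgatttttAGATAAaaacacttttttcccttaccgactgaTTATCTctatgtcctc
nhr-34, first intron, chrIV:9674151-9674251: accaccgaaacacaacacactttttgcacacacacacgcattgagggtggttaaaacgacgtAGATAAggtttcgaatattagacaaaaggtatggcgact

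In the second set no WGATAR lay within 50 bp of the summit, so these windows have no capitals. They are shown because they include 3 of the strongest intronic peaks, at egl-18, F53E4.1 and mtm-3, the partner peaks in elt-1 and nhr-34, and a pair of windows rich in G and C, at vab-1 and lin-42.
egl-18, first intron, chrIV:1911420-1911520: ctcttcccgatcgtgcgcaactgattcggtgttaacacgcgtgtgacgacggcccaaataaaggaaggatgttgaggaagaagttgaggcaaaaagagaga
F53E4.1, first intron, chrV:15661106-15661206: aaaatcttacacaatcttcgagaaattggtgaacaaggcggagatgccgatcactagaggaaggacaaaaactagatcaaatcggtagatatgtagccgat
mtm-3, intron 2, chrIII:3797312-3797412: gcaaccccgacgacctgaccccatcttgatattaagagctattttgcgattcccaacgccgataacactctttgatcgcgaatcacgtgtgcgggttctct
elt-1, intron 4, chrIV:9618136-9618236: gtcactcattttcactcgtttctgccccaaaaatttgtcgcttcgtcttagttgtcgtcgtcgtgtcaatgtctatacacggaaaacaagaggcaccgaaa
nhr-34, first intron, chrIV:9670163-9670263: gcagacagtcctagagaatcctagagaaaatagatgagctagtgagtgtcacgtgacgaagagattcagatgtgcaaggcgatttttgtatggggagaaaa
vab-1, first intron, chrII:4573298-4573398: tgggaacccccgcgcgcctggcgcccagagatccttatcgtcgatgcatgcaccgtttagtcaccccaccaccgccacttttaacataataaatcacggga
lin-42, first intron, chrII:1247101-1247201: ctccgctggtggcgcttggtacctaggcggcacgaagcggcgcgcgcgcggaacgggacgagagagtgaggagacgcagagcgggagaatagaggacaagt

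The sites in the first set lay at varied places in the window. In spsb-1 the only match covered the summit base itself on the minus strand, in R02F2.1 a pair of TGATAA sites flanked the summit, and in mbk-2 a pair of AGATAA sites lay on opposite strands. Of the 47 peaks, 19 held 1 site and 6 held 2. The 31 sites were split between strands, 16 on the host gene's coding strand and 15 on the other.

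The 4 strongest intronic peaks stood apart from the rest, with pooled signals from 98.6 to 137.4. They were also the only 4 of the 5508 members narrower than 264 bp. The first lay in fasn-1, which encodes fatty acid synthase, in the first intron (1670 bp) and 436 bp downstream of the transcript start (chrI:8985987-8986169). Its signal was 13.8-fold that of the list's median region in replicate 1 and, on the same scale, 15.2-fold in replicate 2 (mean 14.5 ± 0.972, SD, n = 2), and its window held no WGATAR within 100 bp. In spsb-1, which encodes a protein with SPRY and SOCS box domains, the peak (chrII:15213843-15213997) lay in an intron of 12620 bp at 13.4-fold and 11.8-fold (12.6 ± 1.11). In F53E4.1 (chrV:15661080-15661193) the values were 9.89-fold and 10.6-fold (10.2 ± 0.502). The replicates were close to each other at these 3 peaks, each of which stood among the first 20 regions of both replicates.

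GATA factor genes were hosts themselves. In egl-18, which encodes a GATA factor of the seam cells, the stronger peak (chrIV:1911405-1911535) lay in an intron of 11092 bp at 15.6-fold in replicate 1 and 9.54-fold in replicate 2 (12.6 ± 4.29, SD, n = 2). A second peak in intron 3 (chrIV:1914957-1915220), 3619 bp away, reached 7.86-fold and 3.66-fold (5.76 ± 2.96). In elt-1 itself, 2 peaks 574 bp apart lay in intron 4 (1091 bp). The upstream one (chrIV:9617480-9617743) was 8.90-fold in replicate 1 and had no summit within 100 bp in replicate 2, and the downstream one (chrIV:9618054-9618317) was 6.25-fold and 4.203-fold (5.22 ± 1.44). The strongest region with a summit inside the elt-1 gene (chrIV:9615450-9615918, pooled rank 1) lay 251 bp upstream of a transcript start within the gene, so the rule counts it as promoter and it is not a member. The insertion wgIs354 also encodes ELT-1, and the strain of the control is not given. Signal at the gene's own copy therefore cannot be told apart here from signal at elt-1 sequence in the insertion. In egl-27, which encodes a protein related to MTA1 with a GATA-type zinc finger, a peak in the first intron (chrII:6842886-6843149) reached 5.55-fold and 2.24-fold (3.90 ± 2.34). Its nearest WGATAR sites, 3 in number, lay between 50 and 100 bp from the summit. In all 4 of these peaks that were matched in both replicates, the value was higher in replicate 1, as it was in 35 of all 43 matched peaks.

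**Figure D1:**
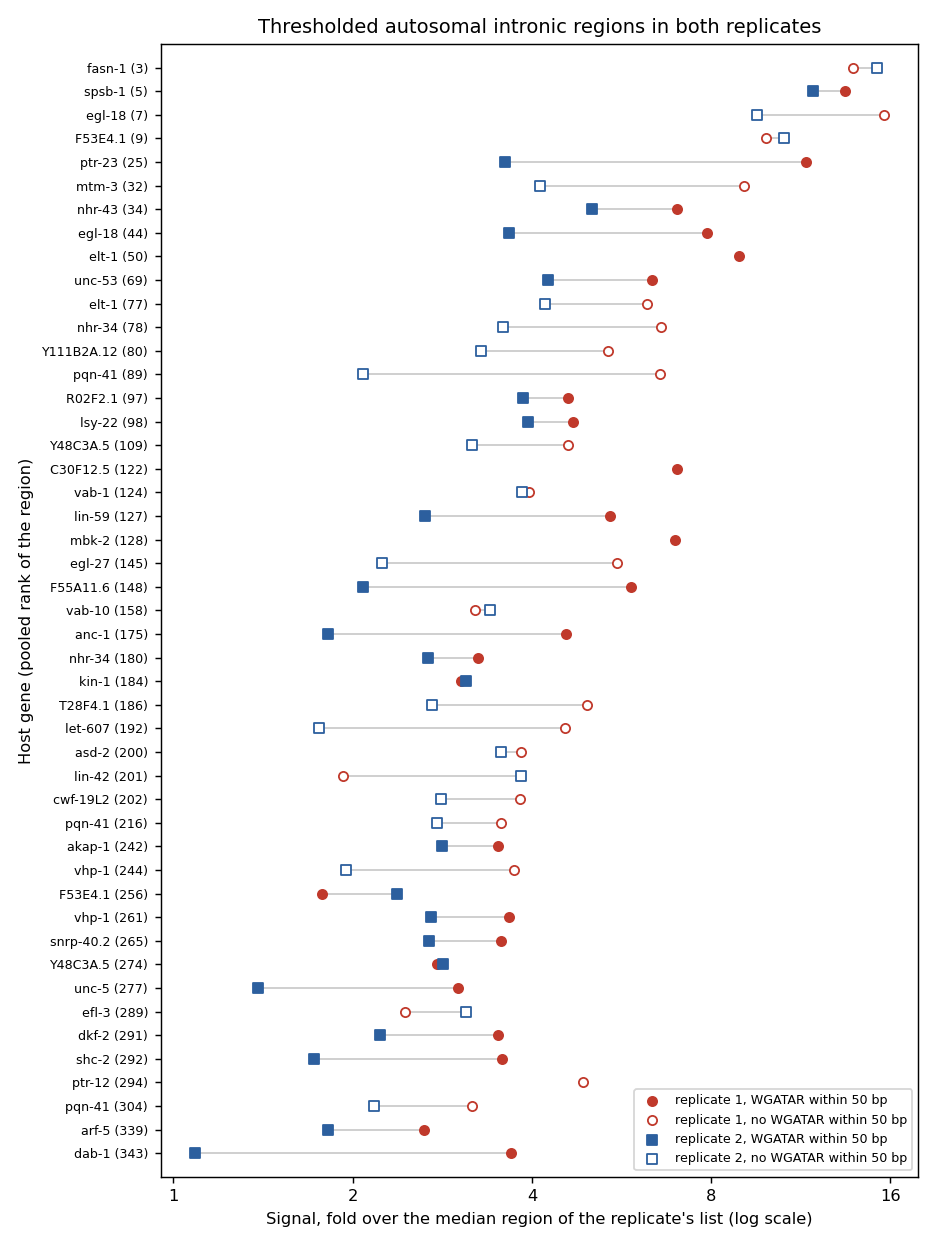
Signal of the 47 thresholded autosomal intronic regions in replicate 1 (circles) and replicate 2 (squares), as fold over the median region of each replicate's list on a log axis, ordered by pooled rank with the host gene named. Filled symbols have WGATAR within 50 bp of the summit; 4 regions have no point for replicate 2, and 35 of the 43 matched regions lie further right in replicate 1.

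In nuclear hormone receptor genes 3 of 87 ranked intronic regions were peaks, and in hedgehog-related and patched-related genes 2 of 40. Of all members, 47 of 5508 (0.853%) were, and counts this small say little about either family. In nhr-43, a peak in an intron of 448 bp (chrIV:11900436-11900699) was 6.998-fold in replicate 1 and 5.05-fold in replicate 2. In nhr-34, 2 peaks lay 3988 bp apart in 2 introns: one without WGATAR (chrIV:9670081-9670344) at 6.58-fold and 3.57-fold, and one with AGATAA (chrIV:9674069-9674332) at 3.24-fold and 2.67-fold. The patched-related gene ptr-23 (chrI:14907970-14908233) had 11.5-fold in replicate 1 and 3.60-fold in replicate 2, with 3 WGATAR sites within 100 bp. The peak in ptr-12 lay in an intron of 137 bp, shorter than the region, at 4.87-fold in replicate 1 and unmatched in replicate 2.

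Of the host genes, 7 held 2 or more peaks, 15 peaks in all. In pqn-41, which encodes a protein rich in glutamine and asparagine, 3 peaks lay in 1 intron of 7776 bp (chrIII:1921402-1921665, chrIII:1925163-1925426 and chrIII:1926474-1926737). Their values were 3.18-fold, 6.57-fold and 3.55-fold in replicate 1 and 2.17-fold, 2.08-fold and 2.77-fold in replicate 2. None of the 3 windows held WGATAR, and 41.6% to 61.4% of their bases are soft-masked in the reference, the mark for repeated or low-complexity sequence. In the MAPK phosphatase gene vhp-1, 2 peaks lay 1172 bp apart in an intron of 8201 bp, at 3.66-fold and 2.70-fold for the one with TGATAA and at 3.74-fold and 1.95-fold for the other. In Y48C3A.5, 2 peaks lay 475 bp apart in an intron of 19927 bp, and F53E4.1 had a weaker peak 3149 bp from its strong one at 1.77-fold and 2.37-fold. In 6 of these 7 genes, 1 peak held WGATAR and the other did not; pqn-41 was the exception.

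The peak in unc-53, which encodes a cytoskeletal regulator of cell migration (chrII:11076607-11076870), was 6.37-fold in replicate 1 and 4.25-fold in replicate 2. The Eph receptor gene vab-1 (chrII:4573216-4573479) had 3.95-fold and 3.84-fold, nearly equal values, in a window with 56.4% GC and no WGATAR. The spectraplakin gene vab-10, a component of epidermal attachment structures (chrI:11791478-11791741), had 3.21-fold and 3.39-fold. The peak in lin-42, a Period-related gene of the heterochronic pathway (chrII:1247019-1247282), was among the 8 matched peaks with the higher value in replicate 2, at 1.93-fold and 3.83-fold (2.88 ± 1.35). Its window had 66.3% GC, the highest of the 47. The netrin receptor gene unc-5 (chrIV:5506680-5506943) had 3.00-fold and 1.38-fold.

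Of the other peaks among the 20 strongest, mtm-3, which encodes a myotubularin-type phosphatase, had 9.07-fold in replicate 1 and 4.12-fold in replicate 2. Y111B2A.12 had 5.37-fold and 3.28-fold, R02F2.1 4.59-fold and 3.87-fold, and lsy-22 4.69-fold and 3.95-fold. The gene lin-59, which encodes a SET-domain protein, had 5.40-fold and 2.64-fold, and the stronger peak of Y48C3A.5 had 4.60-fold and 3.17-fold. C30F12.5 had 7.003-fold in replicate 1 and no matching summit in replicate 2.

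The remaining hosts complete the 39, with pooled signals from 24.7 at dab-1 to 37.7 at mbk-2. The gene mbk-2, which encodes a DYRK-family kinase, had 6.97-fold in replicate 1 and no matching summit in replicate 2, in a window of which 54.5% is soft-masked. F55A11.6 had 5.87-fold and 2.08-fold, and T28F4.1 had 4.94-fold and 2.72-fold. The gene anc-1, which encodes a giant nuclear anchorage protein, had 4.56-fold and 1.82-fold. At kin-1, which encodes the catalytic subunit of protein kinase A, the replicates were close, at 3.04-fold and 3.10-fold, as they were at asd-2, which encodes a splicing factor, at 3.84-fold and 3.55-fold. The values were 3.82-fold and 2.81-fold at cwf-19L2, 3.55-fold and 2.69-fold at snrp-40.2, and 3.51-fold and 2.82-fold at the anchor protein gene akap-1. The E2F-like gene efl-3 had 2.45-fold and 3.10-fold, higher in replicate 2, and the protein kinase D gene dkf-2 had 3.51-fold and 2.22-fold. The gene arf-5, which encodes a small GTPase of the ARF family, had 2.64-fold and 1.82-fold. The bZIP gene let-607 and the adaptor genes shc-2 and dab-1 were set apart by unequal ranks.

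The replicates differed in the sizes of these peaks. The thresholded list was chosen by how well ranks repeat between the replicates, so a match in both is no separate finding. All 47 had a summit within 100 bp in replicate 1 and 43 had one in replicate 2. The 4 without were at elt-1, C30F12.5, mbk-2 and ptr-12. With matching within 50 bp 36 were matched in both, and within 200 bp 44. A match could be any of a replicate's 30000 ranked regions, and 24 of the 47 stood among the first 351 of both. The median fold of the 43 was 4.55 in replicate 1 and 2.84 in replicate 2, with 35 of 43 higher in replicate 1. The medians of thresholded promoter regions, 4.03 and 2.67, and of thresholded intergenic regions, 4.40 and 2.78, were tilted the same way. Across the 43 regions, which share their libraries and were selected on pooled signal, Spearman's rho between the replicates' signals was 0.538 and Pearson's r on log2 signal was 0.670. For the 21 matched among the upper 24 peaks by pooled rank these were 0.565 and 0.703. For the 22 matched among the lower 23 they were -0.235 and -0.254. Pooled rank was made from both replicates, so these parts are not independent of the signals compared. Among the first 351 regions of each replicate's own list, 44 were autosomal intronic in replicate 1 and 45 in replicate 2, and 24 were shared, 54.5% of the former and 53.3% of the latter.

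The 5 peaks with the greatest gaps in rank were at dab-1, unc-5, F53E4.1, shc-2 and let-607. The Disabled-type adaptor gene dab-1 (chrII:8224728-8224991) stood at rank 255 in replicate 1 and 11833 in replicate 2, where its 1.09-fold was close to the median region. At unc-5 the ranks were 438 and 5096, at shc-2 281 and 1853, and at let-607 162 and 1732. The weaker F53E4.1 peak ranked 2160 and 403. Thus 4 of the 5 were stronger in replicate 1, as were 35 of all 43 matched peaks.

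Intronic regions made up 22.9% of the autosomal ranked regions and 18.5% of the autosomal peaks, and the bases that meet the same rule make up 27.95% of the autosomes. The thresholded share was 0.853% of members (47 of 5508, exact 95% interval 0.628 to 1.13). The 1.17% of all ranked regions, which include those on X, lies above that interval. The 1.06% of all autosomal ranked regions (254 of 24023, 0.932 to 1.19) lies inside it. The thresholded share was 1.48% (1.22 to 1.79) of autosomal promoter regions, 1.76% (1.41 to 2.17) of intergenic ones and 0.162% (0.0779 to 0.298) of exonic ones. Per megabase of each place, introns held 2.04 peaks, promoters 4.92, intergenic sequence 4.48 and exons 0.564. By chromosome the intronic share ran from 0.355% on V (4 of 1127) to 1.18% on II (12 of 1014), with intervals that overlap. All these intervals count regions and not reads, whose number is unknown from these files.

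GATA sites were found at more of the intronic peaks than of the other intronic regions, and the interval for intronic peaks overlapped those for peaks elsewhere. A WGATAR site stood within 50 bp of 25 of the 47 intronic summits (53.2%, exact 95% interval 38.1 to 67.9) and in 1062 of 5461 other intronic regions (19.4%, 18.4 to 20.5). For autosomal promoter peaks the share was 45.5% (35.9 to 55.2) and for intergenic peaks 54.02% (43.0 to 64.8). The form AGATAA occurred in 15 intronic peaks (31.9%) and 6.52% of other intronic regions, TGATAA in 7 (14.9%) and 7.78%, AGATAG in 4 (8.51%) and 3.37%, and TGATAG in 2 (4.26%) and 3.48%. Of the 22 peaks without WGATAR within 50 bp, 6 held one within 100 bp and 11 held the bare letters GATA within 50 bp. Such matches are common in introns. Of all other intronic regions, 46.4% held GATA within 50 bp and 34.6% held WGATAR within 100 bp, beside 76.6% and 66.0% of all 47 peaks. Among the 10 strongest intronic peaks, 6 held WGATAR, and among the 20 strongest, 10 did.

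**Figure D2:**
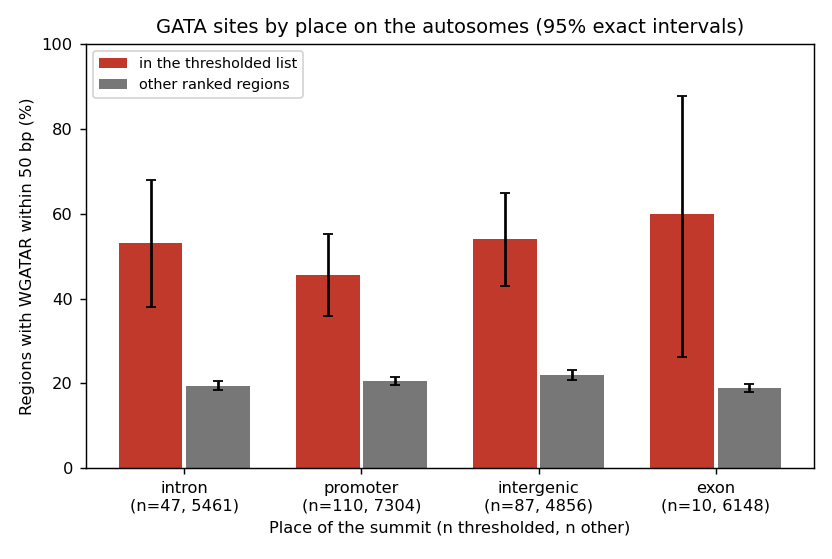
Percent of autosomal regions with WGATAR within 50 bp of the summit, by place, for regions in the thresholded list and for other ranked regions, with exact 95% intervals. Intronic peaks stand at 53.2% and other intronic regions at 19.4%, and the 10 exonic peaks have the widest interval.

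The sites thinned out with distance from the summit. Intronic peaks held 6.81 WGATAR sites per kb within 25 bp of the summit and 6.38 from 25 to 50 bp, then 3.83 from 50 to 100 bp, 2.55 from 100 to 150 bp and 1.49 from 150 to 200 bp. Other intronic regions stayed between 2.24 and 2.37 per kb at every distance. The last value for peaks rests on 7 sites and the first on 16.

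**Figure D3:**
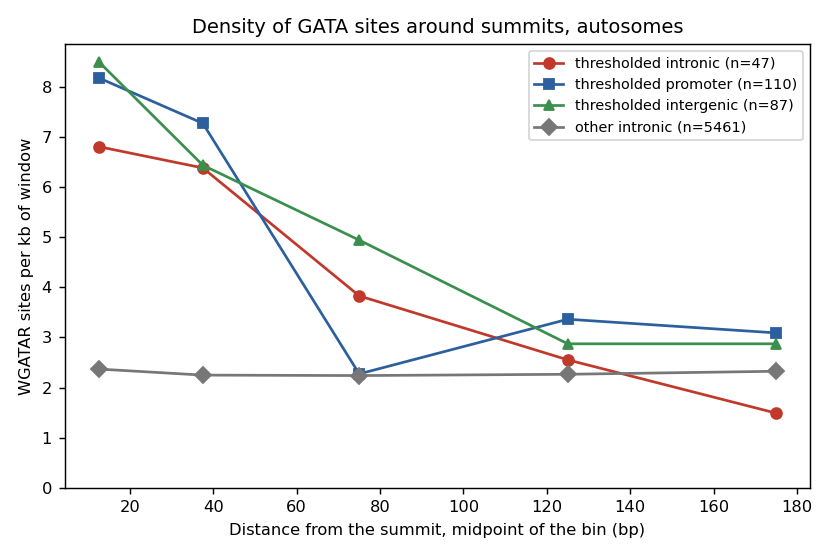
WGATAR sites per kb of window in bins of distance from the summit, for thresholded intronic, promoter and intergenic regions and for other intronic regions of the autosomes. Thresholded regions start at 6.81 to 8.51 per kb at the summit, while other intronic regions are flat near 2.3.

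Several features changed together down the ranks. WGATAR was present in 53.2% of intronic regions of rank 1 to 351, in 28.75% of the 80 from rank 352 to 1000 (19.2 to 39.95) and in 21.1% of the 640 from rank 1001 to 5000. Below rank 5000 it was present in 18.1% and then 19.7%. The share with a summit in a first intron fell over the same bands from 57.4% to 43.75%, 35.3%, 30.9% and 30.0%. The share matched in both replicates fell from 91.5% to 71.25%, 34.1%, 14.3% and 2.34%. The pooled ranks were made from these same replicates, so this share is not independent of rank and its fall is no separate finding. The share of windows with any soft-masked base rose from 38.3% to 47.5%, 76.4%, 81.7% and 86.1%, and the median GC content was 42.6%, 44.6%, 36.6%, 35.6% and 33.7%.

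**Figure D4:**
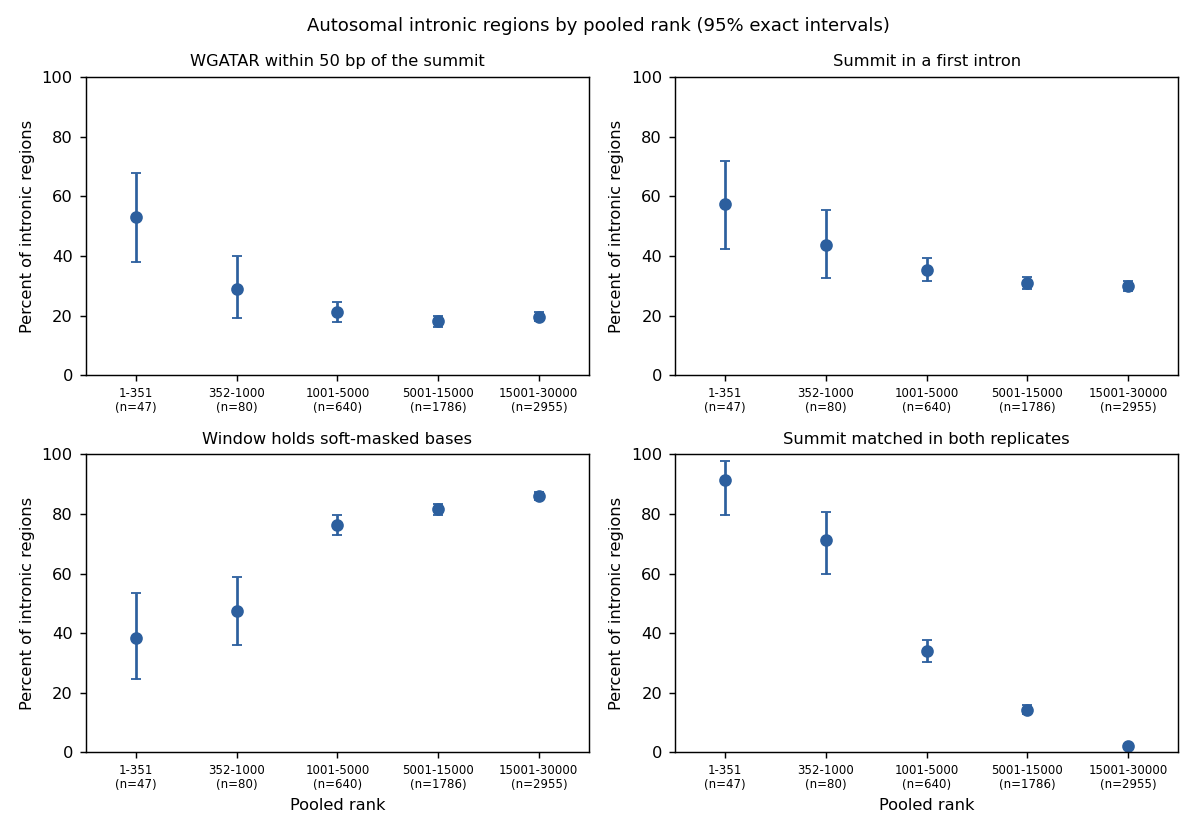
Autosomal intronic regions in 5 bands of pooled rank, with the percent that hold WGATAR within 50 bp, lie in a first intron, have soft-masked bases in the 101-base window, or are matched in both replicates, and exact 95% intervals. The first band is the thresholded list (47 regions), where WGATAR stands at 53.2% and soft-masked windows at 38.3%. Pooled ranks were made from both replicates, so matching in both is not independent of rank.

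Soft-masked sequence was where intronic peaks were scarce. Of the 961 members whose window had no soft-masked base, 29 were thresholded (3.02%, exact 95% interval 2.03 to 4.31), against 18 of the 4547 with some (0.396%, 0.235 to 0.625). The mask covers 53.8% of autosomal intronic bases by the same rule, 35.0% of promoter, 41.2% of intergenic and 12.1% of exonic bases. The lower share of such windows among peaks was not limited to introns. Soft-masked bases were held by 43.6% of thresholded promoter windows and 73.0% of the other ranked promoter windows. For intergenic windows the shares were 49.4% and 76.2%. How well reads map to such sequence is not recorded in these lists, and its part in the result was not tested. Among peaks, WGATAR was held by 18 of 29 windows without soft-masked bases and 7 of 18 with them.

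Intronic peaks lay in long introns. The median intron with a peak was 3402 bp long, against 845 bp for other intronic regions, and 43 of 47 peaks (91.5%) lay in introns over 1000 bp against 45.0% of the others. In introns of up to 1000 bp, 4 of 3009 regions were thresholded (0.133%, exact 95% interval 0.0362 to 0.340). In introns of 5000 to 10000 bp, 14 of 555 were (2.52%, 1.39 to 4.20). The 4 peaks in introns of up to 1000 bp were at nhr-43, akap-1, ptr-12 and arf-5, and the last 2 lay in introns shorter than the region, which therefore reaches into exons.

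**Figure D5:**
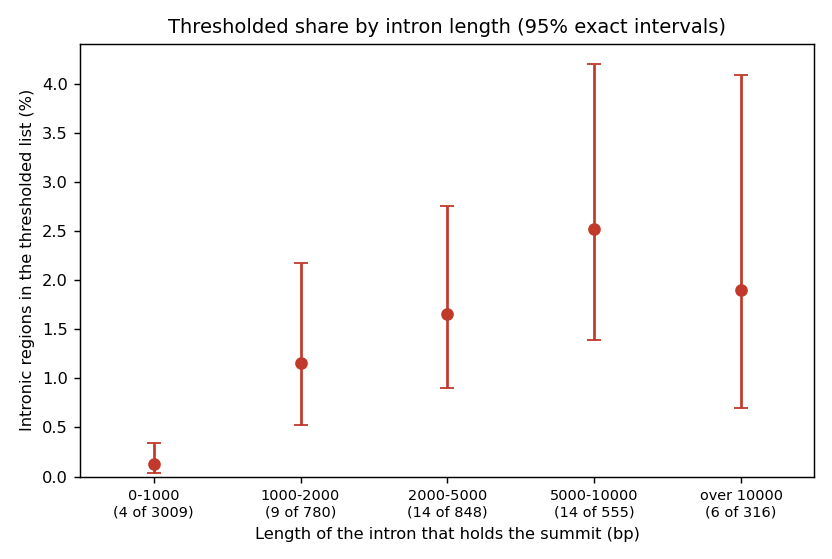
Percent of autosomal intronic regions in the thresholded list by the length of the intron that holds the summit, with exact 95% intervals and the counts under each class. The class up to 1000 bp stands at 0.133% and the class from 5000 to 10000 bp at 2.52%.

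First introns held 27 of the 47 peaks (57.4%, exact 95% interval 42.2 to 71.7) and 31.1% of other intronic regions, and they make up 28.1% of autosomal intronic bases. Among regions in introns over 1000 bp the corresponding shares were 62.8% (46.7 to 77.0) and 45.4% (43.4 to 47.4). An intron counts as first here if it is first in any transcript of its host, including transcripts that begin deep inside the gene. A first intron therefore need not lie near the start of the gene. Counted from the annotated start of the host gene, peak summits lay deeper than those of other members, with medians of 5208 bp and 2522 bp. WGATAR was held by 12 of the 27 peaks in first introns and by 13 of the 20 in later introns. The nearest protein-coding transcript start belonged to the host gene for 44 peaks. Of these, 20 lay upstream of it, at a median of 1781 bp, and so before a start site inside the gene, and 24 lay downstream at a median of 1625 bp. Measured to any start, the median was 1849 bp among peaks and 1536 bp among other members, and 4 peaks lay beyond 5 kb, at Y48C3A.5 (2 peaks), mbk-2 and dkf-2.

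Autosomal intronic regions had 3508 host genes, of which 39 (1.11%) held a peak, and 8 of 22 gene lists had such a host. Of epidermal and seam transcription factors, 3 of the 8 with a ranked intronic region held a peak, egl-18, egl-27 and elt-1, and the same 3 were all the hosts on the GATA factor list. Of the 5 peaks in these 3 genes, 2 lay in elt-1, where signal cannot be told apart from that at elt-1 sequence in the insertion. Among nuclear hormone receptors it was 2 of 59, among hedgehog-related and patched-related genes 2 of 26, and among axon guidance and adhesion genes 2 of 24, unc-5 and vab-1. One host each came from the lists of epidermal junctions, attachment, matrix and molting (vab-10, of 18), the heterochronic pathway (lin-42, of 5) and fatty acid synthesis (fasn-1, of 5). No host held an intronic peak among synaptic genes (0 of 15), neuronal channels and receptors (0 of 18), Wnt (0 of 13), TGF-beta (0 of 12), EGF, Ras and Notch genes (0 of 12), body wall muscle (0 of 8) or cuticle collagens (0 of 8). Lists of Hox genes and cofactors (0 of 4), glia (0 of 5), pharynx (0 of 3), germline (0 of 3), ribosomal proteins (0 of 2) and intestine (0 of 1) also had none, and the Myc and Mondo list had no host at all. At 1.11% of hosts, few or no peaks are what lists of this size would hold, so the zeros say little. The lists were chosen with earlier results of these data known.

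The 5 genes with the most ranked intronic regions held 4 peaks among 74 members (5.41%, exact 95% interval 1.49 to 13.3), beside 0.853% of all members. Regions of 1 gene are not independent of each other. Y48C3A.5 held the most members, 17, with 2 peaks, while daf-16, which encodes the FOXO factor of insulin signalling, held 15 with 0 peaks and a strongest rank of 558. Likewise ppfr-1 held 15 with 0, kin-1 held 14 with 1 and unc-53 held 13 with 1.

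The strongest intronic regions outside the thresholded list continued the series without a gap. The last intronic peak, at dab-1, had a pooled signal of 24.7 and rank 343, and the next member, a further region of lin-42 (chrII:1237906-1238169), had 24.3 and rank 365. It stood at 3.03-fold in replicate 1 and 2.37-fold in replicate 2, closer together than the values of the thresholded lin-42 peak. After it came the potassium channel gene twk-4 (2.38-fold and 2.40-fold), nhr-22 (2.46-fold and 2.20-fold), frm-7 (2.85-fold and 1.94-fold) and glb-24 (2.87-fold and 2.05-fold). Of these 5, only the glb-24 region held WGATAR within 50 bp.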

How the data were processed

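The region lists used are on ce11, and the ce10 lists were not used because no ce10 annotation was at hand. The signal of each region is the authors' deposited value, and per the listing deposited with the files it was made from alignments with a control. Which caller, aligner, threshold and versions were used is not given in the sources used here. Signals have another scale in each list, so they were used as ranks or as folds over that list's median region. Depth is unknown. A peak's replicate value is that of the nearest summit within 100 bp. Nothing in the labels says more of the replicates than that they are biological.

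Places came from Ensembl release 115 (WBcel235), with 19973 protein-coding genes, and sequences from RefSeq WBcel235, the same assembly as ce11. The intron number is the lowest over the host gene's transcripts. Of the 5508 members, 157 also lay in an exon of another gene and 87 had more than 1 host. Shares have exact (Clopper-Pearson) 95% intervals, for counting of regions only. No test was run: there is 1 group. Placement was checked at random positions of chromosome III on the real annotation. Motif search and summit matching were checked on simulated data. The simulated windows held only G and C around the planted sites, unlike introns. Python 3.11.15, NumPy 2.4.6, pandas 2.3.3, SciPy 1.17.1 and Matplotlib 3.10.9 were used.

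Members and gene lists were chosen with earlier results of these data known. The rule for named genes took the hosts of the 20 strongest peaks, of 2 or more peaks, of the 5 widest rank gaps and on a list, and the 5 strongest members outside the thresholded list. The other hosts of the 47 peaks (mbk-2, F55A11.6, anc-1, kin-1, T28F4.1, asd-2, cwf-19L2, akap-1, snrp-40.2, efl-3, dkf-2 and arf-5) fall outside it and are named after their values were seen, so that every peak is accounted for. Alternatives changed the promoter and exon rules, the motif, the window, the match distance and the lists; 2 were added after the data were seen. Of the names on the lists, 3 were not in the annotation.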

Additional observations from a re-analysis of the deposited data

How the results depend on the processing

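Of 61 values under 15 alternative settings, 49 stayed within 1.5 times the count or within the interval of the share. This tally does not measure robustness, because some values could not move. No peak lay in another gene's exon or within 200 bp of a small RNA gene, so leaving such regions out kept the same 47. The same cut at 351 also limits how far counts from 1 replicate's list could move. No paired analysis was possible because there is only 1 group. With 1 replicate's own list and its first 351 regions, intronic peaks numbered 44 to 45, or 0.770% to 0.783% of intronic regions. WGATAR was then held by 44.4% to 50% of intronic peaks and by 18.7% to 19.8% of other intronic regions, and first introns held 53.3% to 56.8% of peaks. A promoter window from 2000 bp upstream to 500 bp downstream left 29 intronic peaks, by its construction. The upper part of the thresholded list held 25, or 0.454%. WGATAR within 25 bp was held by 25.5% of peaks and 10.3% of other regions. Within 100 bp it was held by 66.0% of peaks (31 of 47) and 34.6% of other regions. AGATAA alone was held by 31.9% and 6.52%. Settings added after the data were seen left out windows with soft-masked bases (29 peaks, 3.02% thresholded, WGATAR in 21.8% of other regions) or regions unmatched in a replicate (6.69% thresholded). The unknown depth and the 2 replicates limit every value.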

Other observations

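Words of 6 bases were counted in the windows of the 47 intronic peaks and of the 5461 other intronic regions, a word and its reverse complement together, as a description with no test. The words with the widest gaps in share were AGATAA (15 of 47 peaks, 31.9%, and 6.52% of the others), AAAGAT (16 peaks, 34.04%, and 8.83%), AAGATG (12 peaks, 25.5%, and 4.98%) and GATCAA (12 peaks, 25.5%, and 5.27%). In the 22 peaks without the motif, the word AGAGAT led with 7 (31.8%, and 5.22% of the others), followed by GAGTGA with 6 (27.3%, and 3.52%). The others here are all 5461, with or without the motif, so the 2 sets are unlike. These words were picked as the highest of all words, and 22 regions are few. Peaks without WGATAR had a median GC content of 47.0%, against 38.6% for peaks with it. Of the peaks without WGATAR, 15 of 22 lay in first introns, and of those with it 12 of 25.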
